A study of Mus musculus with 6 samples.

Results

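The genes described here are 32 genes of sterol and fatty acid synthesis and of their control, taken by name from the 28324 genes of a single-cell table of mouse hippocampus. They comprise 7 genes of the mevalonate pathway, 11 of the steps from squalene to cholesterol, 6 that control or transport sterol and 8 of fatty acid synthesis, elongation and desaturation. All 32 were found in the table, 1 of them (Msmo1) under its older symbol Sc4mol.

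Drop-Seq, which tags the 3′ ends of the transcripts of single cells with molecular barcodes, was run on the hippocampus of 6 mice of 10 weeks. All 6 carried the APP/PS1 transgenes, given as B6.Cg-Tg(APPswe,PSEN1dE9)85Dbo/Mmjax, a mutant human amyloid precursor protein and a mutant presenilin 1, so no group lacked amyloid transgenes. In this line the mouse prion protein promoter drives both transgenes. The treated group of 3 was given an antisense oligonucleotide, abbreviated ASO, and the control group of 3 was given the saline vehicle PBS, without a control oligonucleotide. The title names reduction of IDOL, the product of Mylip, a ubiquitin ligase that marks lipoprotein receptors for degradation. The labels used here give no dose, route or duration of treatment and no sex.

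Cells make cholesterol from acetyl-CoA through mevalonate and squalene, and fatty acids from acetyl-CoA through malonyl-CoA. Transcription of both sets of enzymes is driven by the SREBP factors, encoded by Srebf1 and Srebf2, which SCAP carries to the Golgi for cleavage when sterol is low and which INSIG proteins hold back in the endoplasmic reticulum when sterol is plentiful. In the brain, which is largely closed to circulating cholesterol, astrocytes supply sterol in lipoproteins, and oligodendrocytes need large amounts of sterol and fatty acid for myelin.

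The cells fell into 17 classes named by the authors, and 10 of them had at least 20 cells in every mouse. The 12616 cells used carried 2005768 to 3150332 unique molecular identifiers (UMIs, counted transcripts) per mouse. Markers of the astrocyte, oligodendrocyte, endothelial and microglial classes were far above their level in the other classes, with a median summed level of 28930 CPM (counts per 1000000 UMIs) for 6 astrocyte markers in astrocytes and 541 CPM in oligodendrocytes. Choroid plexus markers (6 genes, Ttr and Enpp2 among them) were counted in every one of these classes. Their median sum was 3225 CPM in astrocytes and 6095 CPM in oligodendrocytes. The lowest sum in a PBS mouse was 1016 CPM in astrocytes, 2881 CPM in oligodendrocytes and 86.05 CPM in microglia. How much of each sum came from other cells was not tested. Among the 10 classes Cajal-Retzius neurons had the highest median sum, at 30090 CPM, which limits the reading of their levels. PBS replicate 1 stood apart from the other 5 mice in its astrocytes, and results that rest on it are given with and without it. How the authors assigned classes is not given in the sources used here and may have drawn on these genes, so levels across classes are described with no test. A level is the UMIs of a gene per 1000000 UMIs of that class in that mouse.

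Among the 10 classes, astrocytes had the highest mean level of nearly the whole cholesterol pathway. They led for 23 of the 32 genes, including all 7 mevalonate genes and 10 of the 11 later sterol genes. Of the 14079 genes with at least 50 UMIs, 8.4% had their highest mean in astrocytes. Without PBS replicate 1 astrocytes led for 20 of the 32 and oligodendrocytes for 7 in place of 3. Oligodendrocytes led for Ebp, Elovl1 and Scd2 (7.51% of all genes), CA1 neurons for Srebf2, Scap and Acaca (11.4%), dentate neurons for Insig2 (8.67%), endothelial cells for Stard4 (9.94%) and polydendrocytes, the oligodendrocyte precursors, for Elovl6 (12.5%). Astrocytes held 15.5% of all UMIs and 40.9% of those of the 18 mevalonate and sterol enzymes. Classes with fewer than 20 cells in a mouse were outside this comparison. Among them, subiculum and entorhinal neurons held 1.51% of all UMIs and 4.57% of those of Fdft1, where astrocytes held 43.6%. Summed mevalonate genes were at 435 ± 131 CPM in that class and 711 ± 184 CPM in astrocytes. The later sterol genes summed to 637 ± 133 CPM there and 1465 ± 402 CPM in astrocytes.

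**Figure D1:**
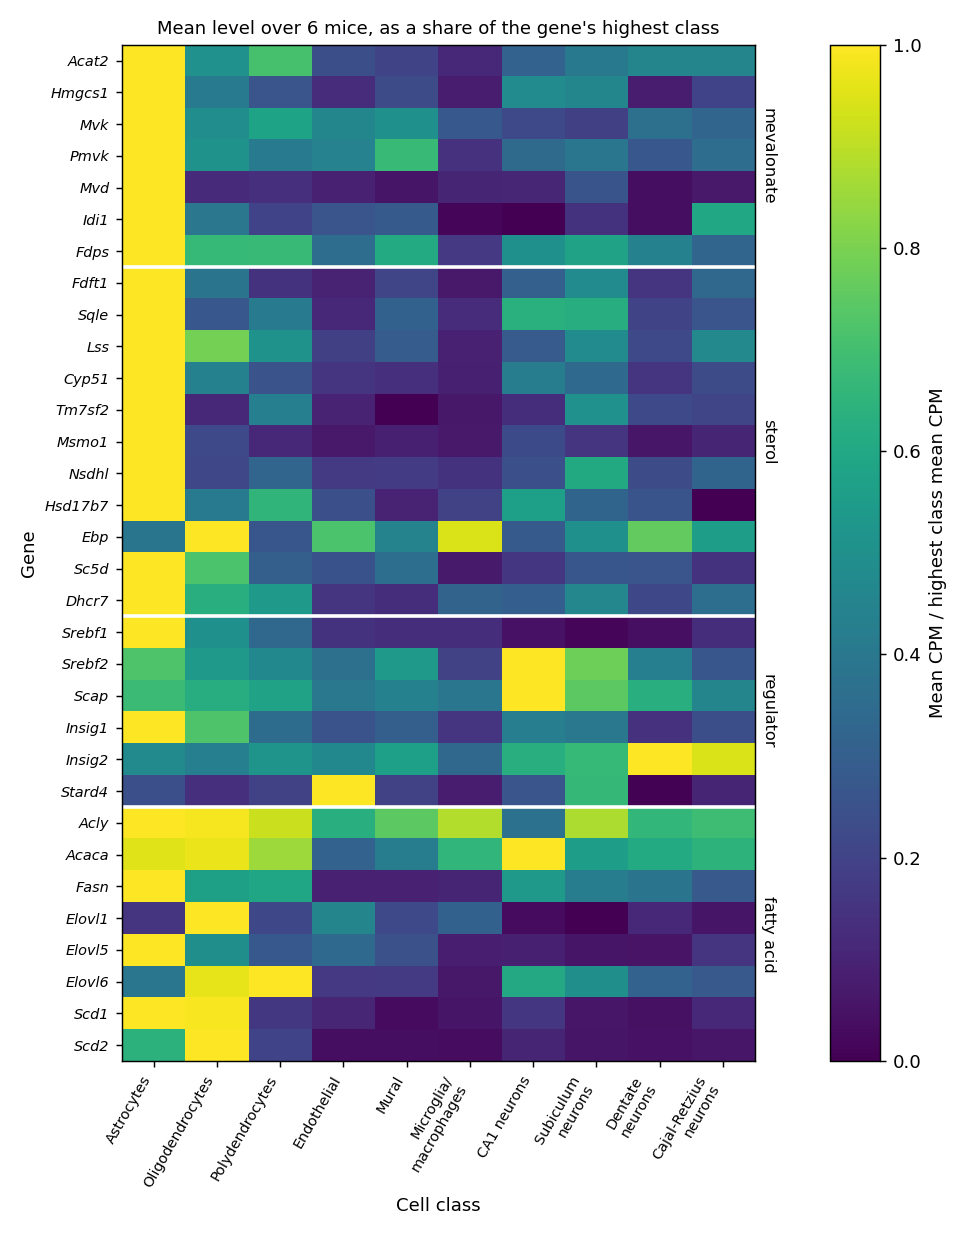
Mean level of each of the 32 genes (rows, grouped by role) in 10 cell classes (columns), drawn as a share of the gene's own highest class mean over 6 mice. The astrocyte column is at 1 for 23 genes, and Ebp is the only one of the 18 mevalonate and sterol enzymes that peaks elsewhere.

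Promoter sequence is shown for 4 of these genes, since so many of them peaked in 1 class. Sequences are from RefSeq on the build GRCm38.p6, where 26 of the 32 genes matched. Fdps, Fdft1, Sqle, Stard4, Scd1 and Scd2 did not match, so their promoters were not searched. Each is read 5′ to 3′ on the gene's own strand, with base −1 next to the transcription start. Capitals mark exact matches on either strand to TCACNCCAC (1 form of the sterol regulatory element, an SREBP site), the NF-Y motif CCAAT or the Sp1 motif GGGCGG. A match on the opposite strand reads ATTGG or CCGCCC. Other forms of the sterol regulatory element were not searched for, so lower case does not mean that such a site is absent. The windows are 100 bases of Hmgcs1 (chr13:119690211-119690310, plus strand, bases −140 to −41), Msmo1 (chr8:64733579-64733678, minus strand), Cyp51 (chr5:4104698-4104797, minus strand) and Ebp (chrX:8193513-8193612, minus strand), the last 3 ending at base −1. Hmgcs1 is shown as the only gene of the 26 with a match to these sterol regulatory element letters. The other 3 were chosen after their levels were seen, Ebp as the exception in the pathway.
Hmgcs1: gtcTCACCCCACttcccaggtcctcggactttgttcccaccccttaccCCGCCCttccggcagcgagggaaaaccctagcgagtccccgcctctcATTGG
Msmo1: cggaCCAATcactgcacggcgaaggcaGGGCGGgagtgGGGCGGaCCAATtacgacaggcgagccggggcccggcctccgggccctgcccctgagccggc
Cyp51: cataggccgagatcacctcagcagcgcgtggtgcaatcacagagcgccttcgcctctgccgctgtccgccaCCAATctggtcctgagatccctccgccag
Ebp: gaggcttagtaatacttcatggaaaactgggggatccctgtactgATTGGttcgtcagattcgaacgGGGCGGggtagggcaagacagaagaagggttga

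Within 250 bases upstream, CCAAT on either strand was found in 21 of the 26 genes, against 37.5% of all 27025 genes in the promoter table and 40.4% of its 10115 protein-coding genes with at least 50 UMIs. GGGCGG was also found in 21 of the 26, against 35.4% of all genes and 63.2% of the expressed protein-coding ones. Among the 26, the sterol regulatory element letters matched in Hmgcs1 alone (1.22% of all genes), and the palindromic E-box TCACGTGA in none (0.907%). Only these exact letters were searched for, so the counts do not show how many of the genes have an SREBP site. These motifs do not overlap one another in the 4 windows. A match is a string of letters in a window and not a measured binding site. Ebp, which did not peak in astrocytes, had both CCAAT and GGGCGG, as did Msmo1, which did.

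Hmgcs1 encodes the synthase that makes HMG-CoA, from which mevalonate is formed. Its astrocyte level was 571, 324 and 304 CPM in PBS replicates 1 to 3 and 359, 313 and 316 CPM in ASO replicates 1 to 3, a mean of 364 ± 103 CPM (SD, n = 6). Every astrocyte value was above every value of the other 9 classes, where CA1 neurons came next at 175 ± 40.8 CPM, followed by subiculum neurons at 168 ± 83.2 and oligodendrocytes at 149 ± 18 CPM. Those 3 overlapped between mice. Microglia and macrophages, 1 class in these data, were lowest at 28.7 ± 6.47 CPM, beside dentate neurons at 28.7 ± 15.6 CPM.

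Msmo1, a methyl oxidase that acts on sterols after lanosterol, had the largest ratio of its leading class to the next among the 18 enzymes. Its astrocyte levels were 834, 425 and 544 CPM in the PBS mice and 534, 666 and 509 CPM in the ASO mice. The next class, CA1 neurons, had a mean of 132 ± 87.4 CPM, 4.44 times lower, and no CA1 value reached the lowest astrocyte value. Astrocytes held 59.0% of all Msmo1 UMIs. Only Hmgcs1, Msmo1 and Elovl5 had every astrocyte value above every value of each other class, which held for 1.9% of all genes.

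For the other mevalonate and sterol enzymes led by astrocytes, values overlapped with at least 1 other class. Cyp51, the lanosterol demethylase, was at 152 ± 46.8 CPM in astrocytes and 66.7 ± 13.4 CPM in oligodendrocytes, and every astrocyte value was above every oligodendrocyte value. Fdft1 (squalene synthase) was at 160 ± 62.0 CPM and Sqle (squalene epoxidase) at 146 ± 37.9 CPM in astrocytes, and both overlapped with a neuron class that followed. Lss (lanosterol synthase) reached 70.4 ± 42.5 CPM in astrocytes and 55.8 CPM in oligodendrocytes, and the 2 classes overlapped. Idi1, Mvd and Tm7sf2 rested on few transcripts (111, 136 and 214 UMIs in all cells), so their order among the lower classes cannot be read.

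Pairs of classes were compared with overlap taken into account. Every astrocyte value was above every microglial value for 25 of the 32 genes (16.9% of all genes), above every endothelial value for 24 (12.9%) and above every dentate neuron value for 19 (12.3%). Against the other classes the count was lower, at 15 for mural cells (9.62%), 14 for Cajal-Retzius neurons (7.81%), 13 for CA1 neurons (11.4%), 13 for polydendrocytes (6.84%) and 11 for subiculum neurons (10%). Against oligodendrocytes, astrocytes were wholly above for 11 genes (14.1%), 10 of them mevalonate or sterol enzymes, and wholly below for Ebp, Elovl1 and Scd2 (11.6%). Oligodendrocytes were wholly above microglia for 19 genes (15.8%) and above polydendrocytes for 8 (6.48%).

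Ebp, the sterol isomerase that acts between the demethylation steps and the final reductions, was the exception. Its level was 39.9, 51.8 and 48.05 CPM in oligodendrocytes of the PBS mice and 44.3, 47.8 and 47.0 CPM in those of the ASO mice. In astrocytes it was 22.2, 14.8 and 9.02 CPM in the PBS mice and 29.6, 17.5 and 15.1 CPM in the ASO mice, below every oligodendrocyte value. Microglia had 43.9 ± 10.8 CPM of Ebp, overlapping with oligodendrocytes and wholly above astrocytes. Across the means of the 10 classes, Ebp ran against the summed level of the other enzymes (Pearson's r of log2 values −0.49, Spearman's rho −0.36), whereas Cyp51 had r = 0.97 and Msmo1 r = 0.93. These coefficients describe 10 classes of the same 6 libraries.

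**Figure D2:**
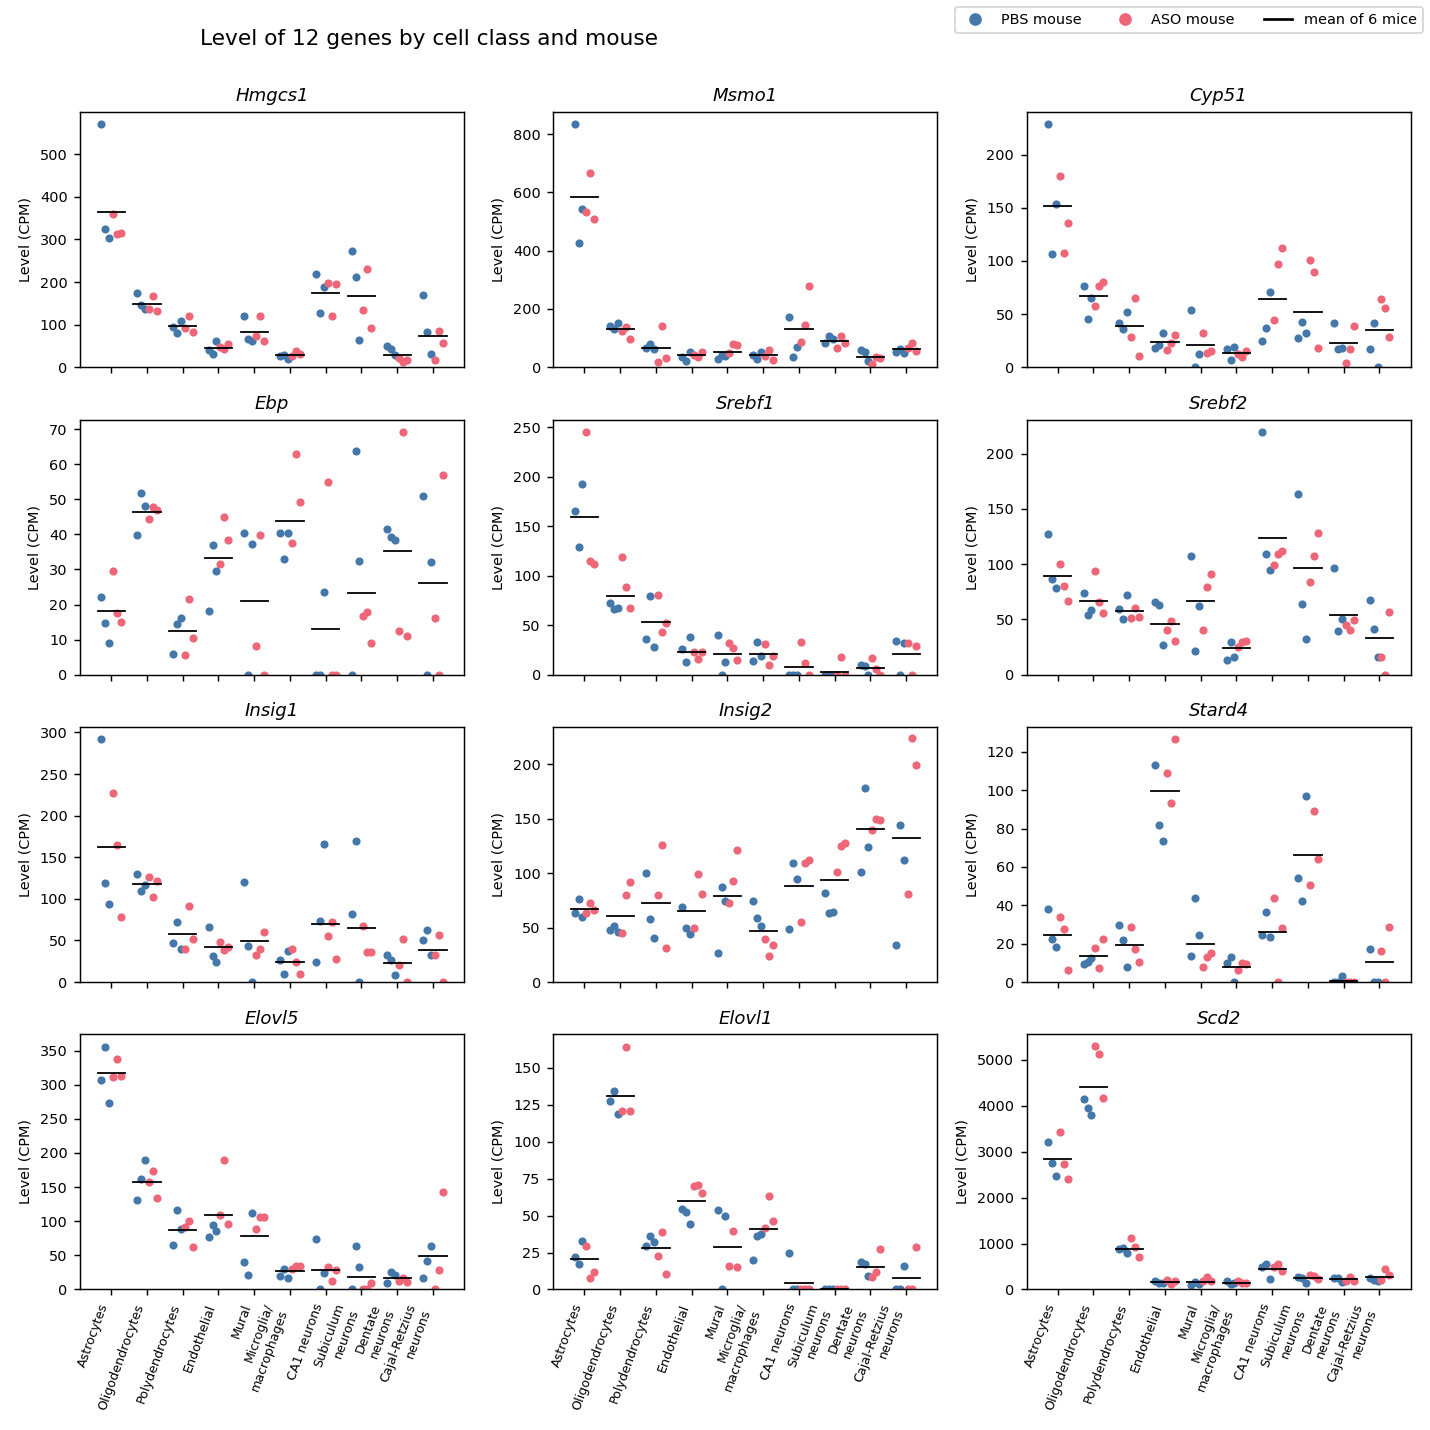
Level in CPM (linear axes, 1 scale per panel) of 12 of the genes in 10 cell classes, with 1 point per mouse and a line at the mean of 6 mice. Hmgcs1, Msmo1 and Elovl5 are highest in astrocytes in every mouse, Elovl1 and Scd2 in oligodendrocytes, and the highest astrocyte points of Hmgcs1, Msmo1, Cyp51 and Insig1 all belong to PBS replicate 1.

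The genes that control the pathway did not share 1 leading class. Srebf1, which encodes the SREBP forms that mainly drive fatty acid genes, was at 165, 129 and 192 CPM in astrocytes of the PBS mice and 246, 115 and 111 CPM in those of the ASO mice. Oligodendrocytes followed at 79.9 ± 20.7 CPM and polydendrocytes at 53.1 ± 22.3 CPM, and the astrocyte and oligodendrocyte ranges overlapped. Neurons gave few Srebf1 transcripts, with 4 UMIs in CA1, 9 in dentate, 1 in subiculum and 7 in Cajal-Retzius neurons, where the last had 21.1 ± 16.5 CPM, near microglia at 20.8 ± 9.43 CPM. Ependymal cells, too few per mouse for the comparison, had 54 UMIs of Srebf1, a pooled level of 230 CPM (95% Poisson interval 173 to 300, counting error only).

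Srebf2, whose product mainly drives sterol genes, was spread differently. CA1 neurons had 220, 109 and 94.4 CPM in the PBS mice and 99.0, 109 and 112 CPM in the ASO mice, on 41 UMIs in total. Subiculum neurons had 96.4 ± 46.7 CPM and astrocytes 89.7 ± 21.3 CPM, and these 3 classes overlapped. Microglia were lowest at 24.0 ± 7.44 CPM. Scap, the escort protein, varied less between classes, from 33.4 ± 11.7 CPM in microglia to 85.1 ± 34.1 CPM in CA1 neurons.

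Insig1 and Insig2, which encode the 2 retention proteins, lay in different classes. Insig1 in astrocytes was 292, 119 and 93.2 CPM in the PBS mice and 227, 165 and 78.3 CPM in the ASO mice, a wide range that contained every oligodendrocyte value (mean 118 ± 9.98 CPM). Insig2 had its highest mean in dentate neurons, at 101, 179 and 124 CPM in the PBS mice and 139, 150 and 149 CPM in the ASO mice. Cajal-Retzius neurons were close behind at 133 ± 72.0 CPM and overlapped with dentate neurons. Choroid plexus markers in the Cajal-Retzius class summed to 12920 to 36320 CPM with PBS and 23850 to 103000 CPM with ASO. Every dentate value of Insig2 was above every astrocyte value, whose mean was 67.1 ± 6.25 CPM. Over the 10 class means, Insig1 followed the summed mevalonate and sterol enzymes (r = 0.93, rho = 0.90), Srebf2 less closely (r = 0.71, rho = 0.73), Srebf1 less again (r = 0.48, rho = 0.36) and Insig2 did not (r = −0.04, rho = 0.05).

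Stard4, a carrier of cholesterol between membranes, had its highest mean in endothelial cells. Its endothelial level was 113, 81.6 and 73.6 CPM in the PBS mice and 109, 93.2 and 127 CPM in the ASO mice. Subiculum neurons came next at 66.2 ± 22.0 CPM on 22 UMIs, and the 2 classes overlapped. Astrocytes had 24.3 ± 11.6 CPM and oligodendrocytes 13.3 ± 5.77 CPM, both wholly below endothelial cells. Dentate neurons gave 1 Stard4 UMI in 1122 cells.

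The desaturases were highest in oligodendrocytes and astrocytes. Scd2, the main stearoyl-CoA desaturase of brain, was at 4143, 3954 and 3790 CPM in oligodendrocytes of the PBS mice and 5293, 5117 and 4162 CPM in those of the ASO mice. Astrocytes followed at 2836 ± 406 CPM, wholly below oligodendrocytes, and polydendrocytes at 884 ± 144 CPM. Oligodendrocytes held 62.4% of the 24179 Scd2 UMIs and astrocytes 26.3%. Scd1, its paralogue, was level between astrocytes (156 ± 51.1 CPM) and oligodendrocytes (154 ± 32.5 CPM). Scd1 and Scd2 have similar coding sequences, and how reads shared between them were treated is not given in the sources used here. Over the 10 classes their levels ran together (r = 0.94, rho = 0.86).

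Low Scd2 levels were set beside oligodendrocyte markers counted outside their own class. In microglia Scd2 was at a median of 3.38% of its oligodendrocyte level in the same mouse, where the 6 oligodendrocyte markers were at 1.45% of theirs. In endothelial cells the medians were 3.78% for Scd2 and 1.04% for the markers. In astrocytes Scd2 was at 64.9% and the markers at 1.21%. Relative to astrocytes, the other large source, microglial Scd2 was at a median of 5.38% and the 6 astrocyte markers at 1.99%. For endothelial cells these medians were 5.6% and 1.51%. How much of the Scd2 in a class came from free RNA or from other cells was not tested.

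Elongases divided by class. Elovl5, which extends polyunsaturated chains, was at 308, 356 and 274 CPM in astrocytes of the PBS mice and 311, 338 and 313 CPM in those of the ASO mice, above every oligodendrocyte value (mean 158 ± 22.6 CPM). Elovl1, which makes saturated very long chains, was at 127, 135 and 119 CPM in oligodendrocytes of the PBS mice and 121, 164 and 121 CPM in those of the ASO mice. Endothelial cells came next for Elovl1 at 59.6 ± 10.7 CPM and astrocytes had 20.3 ± 9.93 CPM. Elovl6, which extends palmitate, was shared by polydendrocytes (181 ± 60.2 CPM) and oligodendrocytes (174 ± 40.9 CPM), which overlapped, with astrocytes at 70.7 ± 33.9 CPM. Only Elovl1 and Scd2 had every oligodendrocyte value above every value of each other class, which held for 2.1% of all genes.

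The remaining fatty acid genes make the precursors and the first long chains. Acly, which makes cytosolic acetyl-CoA from citrate, was at 90.1 ± 16.3 CPM in astrocytes, 89.0 ± 19.4 in oligodendrocytes and 79.5 ± 9.55 in microglia, all overlapping. Fasn, the fatty acid synthase, was at 124 ± 46.5 CPM in astrocytes and 72.8 CPM in polydendrocytes, which overlapped. It was lowest in endothelial cells at 11.4 CPM, and 5 classes lay wholly below astrocytes. Acaca, which makes malonyl-CoA, was led by CA1 neurons at 73.7 ± 50.3 CPM, with oligodendrocytes at 71.6 CPM and no class standing apart.

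A further 61 genes of neighbouring pathways, listed separately and all present in the table, were read the same way. Of 28 other fatty acid genes, 15 had their highest mean in astrocytes (8.4% of all genes), among them Acsl3 (1752 CPM), Acsl6 (740 CPM), Hacd2 (547 CPM), Hacd3 (379 CPM), Fads1 (248 CPM), Fads2 (72.0 CPM) and Elovl2 (71.1 CPM), each with all 9 other classes wholly below. The myelin lipid genes Ugt8a (777 CPM), Fa2h (502 CPM) and Cers2 (326 CPM) were highest in oligodendrocytes, again with all 9 others wholly below. Of 20 further sterol and isoprenoid genes, 7 were led by astrocytes, against the same 8.4% of all genes. Of 13 genes of sterol storage, oxidation and trafficking, 1 was led by astrocytes (Soat1, which esterifies cholesterol, 124 CPM) and 3 by microglia (Npc2 at 1259, Ch25h at 35.7 and Stard3 at 70.7 CPM, with 12.3% of all genes led by microglia). Oligodendrocytes also led for 3 (Npc1 at 206, Osbp at 56.2 and Cyp27a1 at 54.0 CPM, 7.51% of all genes) and mural cells for 2 (8.3%), and Cyp46a1, which makes 24-hydroxycholesterol, was led by subiculum neurons at 114 CPM.

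One mouse stood apart in its astrocytes. The summed level of the 18 mevalonate and sterol enzymes in astrocytes was 3286 CPM in PBS replicate 1, against 1706 and 1927 CPM in the other PBS mice and 2194, 2165 and 1773 CPM in the ASO mice, so that this mouse was 1.68 times the mean of the other 5 (1953 ± 222 CPM). In astrocytes 15 of the 18 enzymes had their highest value in this mouse, which held for 20.2% of the 6946 genes with at least 50 astrocyte UMIs. Dhcr7, the last reductase, was at 114 CPM there and between 19.8 and 65.9 CPM in the other mice. Dentate neurons of the same mouse also had the highest sum (590 CPM, 1.73 times the others), whereas its oligodendrocytes (949 CPM, 1.09 times), endothelial cells (0.9749 times) and microglia (0.932 times) were near the rest.

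Depth and marker levels of these astrocytes are given beside it. The 258 astrocytes of PBS replicate 1 carried 315241 UMIs with 6.61% mitochondrial transcripts, where the other mice had 5.18 to 9.07%. Their 6 astrocyte markers summed to 28160 CPM (27500 to 32600 in the others), the 6 oligodendrocyte markers to 638 CPM (903 to 1189), the 6 microglial markers to 41.2 CPM (49.4 to 90.3) and the 6 neuron markers to 165 CPM (201 to 223). Of 14 marker lists of other cells, 4 were highest in this mouse, at 50.8 CPM for oligodendrocyte precursors, 28.6 for border macrophages, 79.3 for ependymal cells and 82.5 for Cajal-Retzius neurons. Fatty acid genes without Scd2 summed to 1060 CPM in this mouse and 716 to 959 CPM in the others. What set this mouse apart was not tested.

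**Figure D3:**
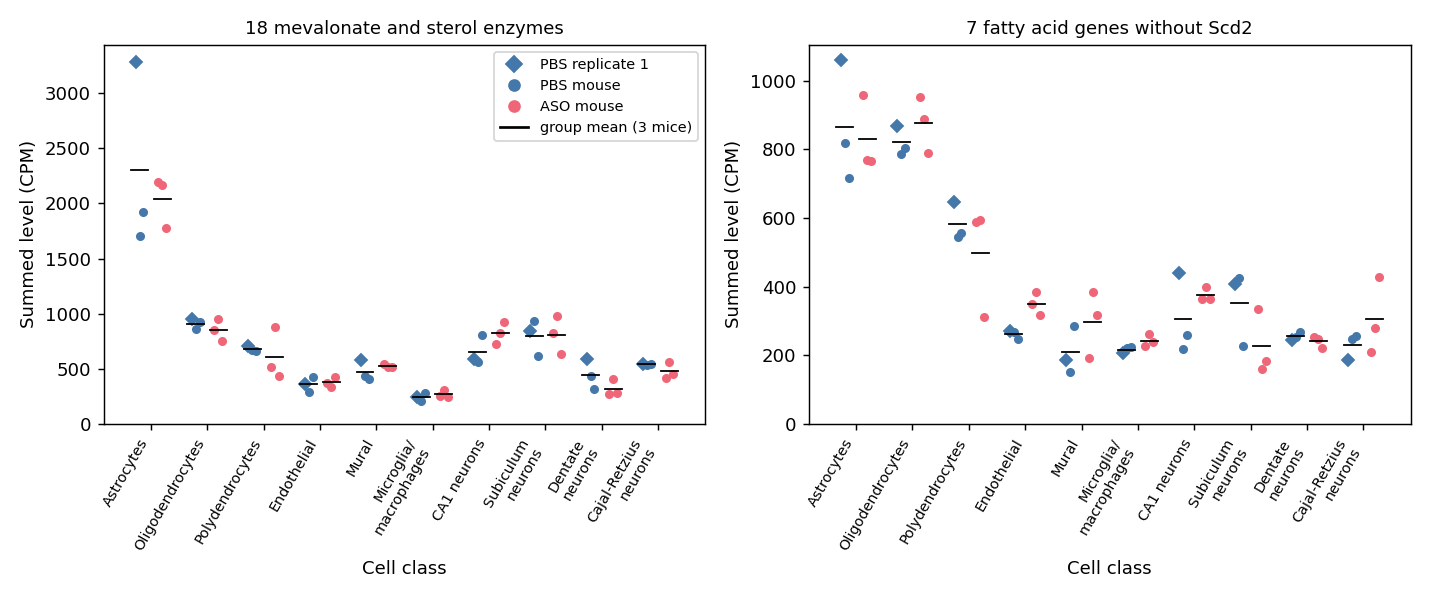
Summed level in CPM of the 18 mevalonate and sterol enzymes (left) and of the 7 fatty acid genes other than Scd2 (right) in 10 cell classes, with 1 point per mouse, a diamond for PBS replicate 1 and a line at each group's mean of 3 mice. In astrocytes PBS replicate 1 lies at 3286 CPM on the left, above the other 5 mice at 1706 to 2194 CPM.

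Whether the ASO altered these genes was asked in the whole library and within each of the 10 classes. The target was read first. Mylip was at 60.2, 70.02 and 74.8 CPM in the whole libraries of the PBS mice and 38.7, 30.2 and 33.9 CPM in those of the ASO mice, with no overlap (log2 fold change −0.99 ± 0.16 SE, adjusted p = 0.0527, edgeR quasi-likelihood test). In microglia it was at 354, 375 and 390 CPM with PBS and 167, 199 and 175 CPM with ASO, and it fell by 1.05 ± 0.18 on the log2 scale (adjusted p = 0.00418). Without ASO replicate 1 the microglial difference was −0.99 with an adjusted p of 0.238.

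None of the 32 genes passed an adjusted p of 0.05 for ASO against PBS, in the whole library or in any of the 10 classes (edgeR). In the whole library all 32 were tested and none reached an unadjusted p under 0.05, while 1 of 14002 genes (0.00714%) passed the adjusted threshold and 4.07% the unadjusted one. The log2 differences there ran from −0.30 to 0.32 with standard errors of 0.13 to 0.34, and 22 of the 32 were higher in ASO mice against 50.5% of all genes. The median was 0.05 for the 32 genes and 0.00 for all genes. No gene of the 32 had its 3 ASO values wholly above (4.4% of all genes) or wholly below (4.64%) its 3 PBS values. By role, 6 of 6 control and transport genes, 7 of 8 fatty acid genes, 6 of 11 sterol genes and 3 of 7 mevalonate genes were on the higher side. That count fell to 14 of 32 when either PBS replicate 2 or PBS replicate 3 was left out. In bulk sums of this kind, a change in the number of cells of a class and a change in transcripts per cell cannot be told apart.

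Scd2 and Scd1 gave 2 of the 3 largest positive differences in the whole library. Scd2 was at 1701, 1508 and 1264 CPM with PBS and 2080, 1937 and 1481 CPM with ASO, and the groups overlapped (0.30 ± 0.17, adjusted p = 0.999, edgeR). Srebf1 was at 60.2, 52.7 and 53.0 CPM with PBS and 86.0, 59.9 and 45.9 CPM with ASO (0.24 ± 0.19, adjusted p = 0.999, edgeR). Srebf2 was at 76.6, 58.5 and 49.7 CPM with PBS and 66.3, 63.3 and 55.8 CPM with ASO (0.02 ± 0.16, adjusted p = 0.999, edgeR). Insig1 was at 104, 67.4 and 55.5 CPM with PBS and 91.1, 84.2 and 59.3 CPM with ASO (0.07 ± 0.20, adjusted p = 0.999, edgeR). Srebf1, Srebf2 and Insig1 each overlapped between groups, and their signs turned when single mice were left out.

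In astrocytes the direction of the whole pathway rested on PBS replicate 1. With all mice, 9 of 30 tested genes were higher with ASO (49.9% of all genes), and 3 of 17 tested mevalonate and sterol enzymes, with an enzyme median of −0.18 on the log2 scale. Without PBS replicate 1, 22 of 31 tested genes and 14 of 17 enzymes were higher, with an enzyme median of 0.19, while 50.5% of all genes were higher. None of the 30 genes had groups that did not overlap (5.01% of all genes wholly higher, 3.98% wholly lower), and none passed the adjusted threshold, as for 0% of all 6282 genes. Only Sc5d, the lathosterol desaturase, had an unadjusted p under 0.05 (3.47% of all genes). It was at 178, 131 and 135 CPM with PBS and 84.1, 143 and 81.3 CPM with ASO (−0.51 ± 0.23, adjusted p = 0.999, edgeR), and its sign held in all 12 alternatives.

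**Figure D4:**
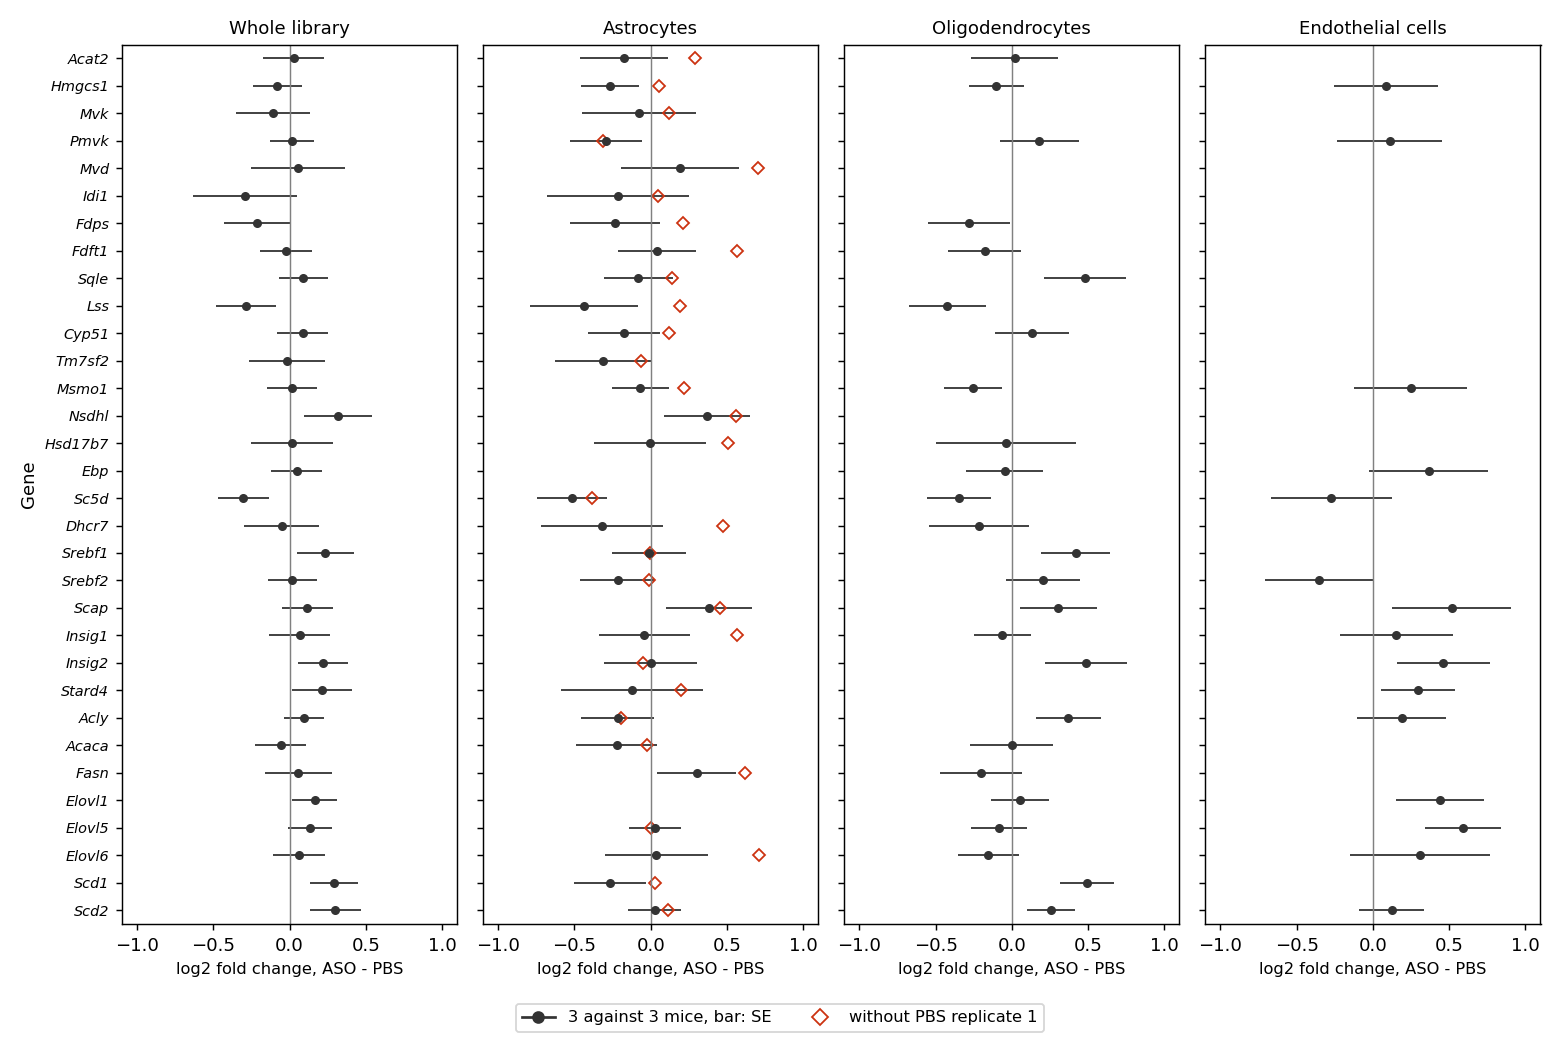
Log2 fold change of ASO over PBS (edgeR, bar: SE) of each tested gene in the whole library, astrocytes, oligodendrocytes and endothelial cells, with open diamonds for the astrocyte fit without PBS replicate 1. No gene passed the adjusted threshold, and in astrocytes 14 of 17 mevalonate and sterol enzymes lie above 0 without that mouse and 3 of 17 with it.

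In oligodendrocytes the 2 desaturases had ASO values wholly above PBS values. Scd1 was at 125, 112 and 140 CPM with PBS and 174, 187 and 186 CPM with ASO (0.49 ± 0.18, unadjusted p = 0.009, adjusted p = 0.43, edgeR), the only one of the 26 with an unadjusted p under 0.05 (6.6% of all genes). Scd2, given above, differed by 0.26 ± 0.16 (adjusted p = 0.867, edgeR). Sqle was the third such gene, at 32.3, 35.2 and 31.3 CPM with PBS and 52.7, 42.4 and 44.8 CPM with ASO (0.48 ± 0.27, adjusted p = 0.844, edgeR). These were 3 of 26 tested genes, where 7.32% of all genes were wholly above, and none was wholly below (4.57%). Of the 26, 12 were higher, against 51.2% of all genes, and 17 of 7141 genes (0.238%) passed the adjusted threshold. The 6 oligodendrocyte markers summed to 81020 to 96750 CPM in the PBS mice and 65560 to 85160 CPM in the ASO mice. Their part in the Scd1 and Scd2 differences was not tested.

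In endothelial cells 13 of 15 tested genes were on the higher side with ASO, against 50.6% of all genes, and 0% of all 6220 genes passed the adjusted threshold. Elovl5 was at 76.6, 94.7 and 85.3 CPM with PBS and 109, 190 and 95.9 CPM with ASO (0.59 ± 0.25, unadjusted p = 0.022, adjusted p = 1, edgeR), the only one of the 15 with an unadjusted p under 0.05 (4.1% of all genes). Elovl1 was at 54.7, 52.6 and 44.1 CPM with PBS and 70.2, 70.7 and 65.2 CPM with ASO (0.44 ± 0.29, adjusted p = 1, edgeR). These 2 were the only genes of the 15 wholly higher (4.89% of all genes), and none was wholly lower (4.49%). Fatty acid genes without Scd2 summed to 270, 268 and 247 CPM with PBS and 349, 386 and 318 CPM with ASO, with no overlap. Microglia had no overlap for this sum either, at 205.5 CPM in PBS replicate 1 and means of 221.9 CPM in the other PBS mice and 243.2 CPM with ASO. The groups overlapped in each other class, and no share for sums of other gene sets was computed. Blood genes in endothelial cells summed to 5255 to 11240 CPM with PBS and 4222 to 8089 CPM with ASO, and their mural markers to 3365 to 4481 and 2742 to 3364 CPM. Their part was not tested.

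Microglia, where Mylip fell, had few transcripts of these genes, and 24 of the 32 were below the count filter. Srebf1, Srebf2 and Insig1 were among those not tested, with microglial means of 21.7 ± 10.0, 19.7 ± 8.66 and 24.8 ± 14.01 CPM in the PBS mice and 19.8 ± 10.9, 28.3 ± 2.93 and 24.4 ± 15.2 CPM in the ASO mice (SD, n = 3 each), all overlapping. Of the 8 tested, 4 were higher (48.7% of all genes) and 4 lower, and 1 had an unadjusted p under 0.05 (5.52% of all genes). That gene, Insig2, was at 74.1, 59.2 and 51.1 CPM with PBS and 39.7, 24.2 and 33.8 CPM with ASO, wholly lower (6.01% of all genes), with a difference of −0.80 ± 0.33 (unadjusted p = 0.020, adjusted p = 0.822, edgeR). Elovl1 was wholly higher (4.93% of all genes), at 20.2, 36.2 and 37.6 CPM with PBS and 41.8, 63.0 and 46.2 CPM with ASO (0.61 ± 0.37, adjusted p = 0.889, edgeR). In this class 2 of 5473 genes (0.0365%) passed the adjusted threshold.

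The remaining classes held few testable genes of the 32. Dentate neurons had 8, of which 2 were higher (51% of all genes), and polydendrocytes had 12, of which 6 were higher (50.9%) and Sqle was wholly lower (4.62%). Mural cells, CA1 neurons and Cajal-Retzius neurons had 1 each and subiculum neurons had 2. The mural gene was Scd2, at 93.9, 153 and 124 CPM with PBS and 193, 265 and 181 CPM with ASO (0.82 ± 0.37, unadjusted p = 0.036, as for 8.02% of all genes, adjusted p = 0.567, edgeR). The adjusted threshold was passed by 0.257% of all genes in mural cells, 0.188% in subiculum neurons, 0.0447% in polydendrocytes and 0% in CA1, Cajal-Retzius and dentate neurons. In dentate neurons the enzyme sum was 590, 432 and 315 CPM with PBS and 271, 410 and 281 CPM with ASO, and the groups overlapped.

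Differences between classes in the ASO effect were tested for 24 of the 32 genes in 1 model of 7945 genes. No gene of the 24 passed the adjusted threshold in any class, where 0.0101% of all pairs of a gene and a class did. The lowest p was that of Insig2 in microglia, whose difference was 1.19 lower on the log2 scale than the mean of the other classes (−1.19 ± 0.36, unadjusted p = 0.00124, adjusted p = 0.864, edgeR).

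Of the 61 neighbouring genes, none passed the adjusted threshold in any comparison (edgeR). In the whole library 38 of 61 were higher with ASO, against 50.5% of all genes. The lowest p was that of Fads1, a desaturase of polyunsaturated fatty acids, in oligodendrocytes (1.05 ± 0.26, unadjusted p = 0.000401, adjusted p = 0.104, edgeR). Npc2, a lysosomal cholesterol carrier, differed by 0.44 ± 0.16 in microglia (adjusted p = 0.767, edgeR), and G6pdx, which supplies NADPH, by 1.01 ± 0.37 in oligodendrocytes (adjusted p = 0.462, edgeR). Of the 40 neighbouring genes tested in oligodendrocytes 5 had an unadjusted p under 0.05, against 6.6% of all genes.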

How the data were processed

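The authors deposited 1 table of raw UMI counts of 28324 genes in 12823 cells, with mouse and class in the cell names. Reads were handled with bcl2fastq and STAR 2.5.0c on mm10 (GRCm38), per the submitters' processing notes. The deposited cells have at least 501 genes, 569 to 1999 UMIs and at most 15.0% mitochondrial UMIs, and the sources used here do not give how classes were assigned. The 32 genes, the 61 neighbouring genes and the markers were chosen with earlier results of these data known. Symbols were matched through RefSeq synonyms.

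Scrublet (scanpy 1.11.5), run per mouse, marked 207 cells (1.61%) as doublets, which were left out. 8 barcodes occur in more than 1 mouse. Counts were summed per mouse and class, since cells of a mouse are not replicates. Levels are counts per 1000000 UMIs (CPM). ASO and PBS were compared (3 against 3 mice) in classes with at least 20 cells per mouse with edgeR 4.0.16 (R 4.3.3), using TMM scaling, a filter on low counts, the quasi-likelihood test and Benjamini-Hochberg adjustment over all genes tested. The class interaction compares a class with the mean of the others, with each mouse as a term. Correlations use log2 of the class mean plus 1. Poisson intervals cover counting error only, and SDs of levels also hold the spread between mice. The fits were run on simulated counts with changes larger than the differences read here. Those runs do not show whether small changes would be found. The labels give 6 mice, 3 with ASO and 3 with PBS, so p-values of ASO against PBS measure the spread between mice. In the class interaction each mouse is a term, so its p-values rest on the spread of class sums that remains. That model treats the class sums of a mouse as otherwise independent. Sample titles number the PBS mice consecutively and the ASO mice apart from them, with ASO replicate 3 outside the run of ASO replicates 1 and 2. What the numbering stands for is not given. Whatever sets the PBS numbers apart from the ASO numbers cannot be told apart from the treatment.

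Named genes were the 8 of the 32 with most UMIs, Srebf1, Srebf2, Scap, Insig1, Insig2 and Mylip, and any with an unadjusted p under 0.05. Others were named after their values were seen. Alternatives were other size factors, no filter, DESeq2 1.42.0, limma 3.58.1 with voom, doublets kept, sets of mice as a block, other level scalings, and each mouse left out. Promoter sequences and gene synonyms are RefSeq's.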

Additional observations from a re-analysis of the deposited data

How the results depend on the processing

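No member of the 32 passed the adjusted threshold in any of the 11 ASO comparisons under any of the 12 alternatives run for each, and none did so in the class interaction under its 2 alternatives. Counts of genes higher with ASO moved. In astrocytes the count was 9 and ran from 4 to 22 when 1 mouse was left out, and in the whole library it was 22 and ran from 14 to 27. In endothelial cells it was 13 of 15 tested genes. With no filter on low counts it became 22 of 32, since each of the 32 had UMIs in that class. Over the settings, calls among all genes ran from 0 to 28 in the whole library, 0 to 9 in microglia and 6 to 41 in oligodendrocytes. Left out in turn, single mice turned the whole-library sign of Srebf2 (−0.00 without PBS replicate 2, −0.12 without PBS replicate 3, −0.04 without ASO replicate 1), Insig1 (−0.12 without PBS replicate 3, −0.06 without ASO replicate 1) and Srebf1 (−0.05 without ASO replicate 1). Their highest values with 1 mouse left out were 0.19, 0.35 and 0.41. Mylip in the whole library passed the threshold with no filter (−0.98), DESeq2 (−0.99) and doublets kept (−1.0).

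The leading class stayed the same for 32 genes with doublets kept, 31 without mitochondrial genes and Ttr in the denominator, 26 with TMM scaling over classes and 27 to 32 with 1 mouse left out. Genes led by oligodendrocytes went from 3 to 7 with TMM scaling and to 7 without PBS replicate 1. Genes with astrocytes wholly above all others went from 3 to 5 with TMM scaling. The cause was not tested.

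The labels pair no mice across groups. Same-numbered mice, in accession order, had deviation correlations of 0.14, 0.138 and 0.0663, each mouse's best. Deviations from a mean of 3 mice cancel within a group, so each mouse is bound to have a best partner. These values therefore cannot tell whether mice were paired. With a block for 3 sets of 2 mice, 0 genes of the 32 passed in every comparison. Depth limits microglia, where 24 of the 32 fell below the count filter, and neuron classes other than dentate, where at most 2 were tested.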
